A study of Mus musculus with 677 samples.

Results

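The Reg genes encode small secreted proteins built around a C-type lectin fold, and 5 of them are described here in single cells of the mouse intestinal lining: Reg1, Reg3a, Reg3b, Reg3g and Reg4. They were taken by name from a table of 23420 genes in which 7 symbols start with Reg and a digit, and they were picked with results of these data already known. The fitted values given for them are therefore a description and no independent support for any pattern. The other family members in the table, Reg2 and Reg3d, were above 0 in 3 and 14 of 677 cells.

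The study asked what Atg16l2, a gene of the autophagy pathway, does in mice, and compared C57BL/6 wild type mice (WT) with mice lacking it (KO). Single intestinal epithelial cells were profiled by SMART-Seq2, a full-length method with 1 library per cell, although the labels also name a 10X kit. The labels give no age, no gut segment and no treatment, so every group is defined by strain and genotype alone. Each cell carries a code M1 or M2 within its genotype, read here as 2 animals per genotype, a run number of 1 or 2, and a cell type name given by the submitters.

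In the small intestine, Reg3b and Reg3g are known as antibacterial lectins that epithelial cells secrete toward the lumen, where Reg3g helps to keep bacteria off the surface. Their transcription is known to respond to bacterial products sensed through Myd88 and to interleukin-22 acting through Stat3. Reg1 is known from regenerating pancreas and from the gut, and Reg4 is known from goblet, enteroendocrine and deep crypt secretory cells.

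The genes fall at 2 places in the genome. Reg3b, Reg3a, Reg1 and Reg3g lie in that order on chromosome 6, with Reg3d, Reg2 and one predicted gene between them, and Reg4 lies alone on chromosome 3. The 150 bases before each annotated start (RefSeq, build GRCm38.p6) are printed below because the pair most alike in single cells, Reg3b and Reg3g, also shared the longest run of promoter sequence. All of them are upstream, untranscribed sequence of the gene they are named for, at chr6:78425833-78425982 for Reg1 (plus strand), chr6:78380559-78380708 for Reg3a (plus), chr6:78370735-78370884 for Reg3b (plus), chr6:78468875-78469024 for Reg3g (minus) and chr3:98222006-98222155 for Reg4 (plus). Capitals mark runs of at least 11 bases that are identical in the promoter window of another of the 5 genes, where the window runs from 250 bases before to 50 bases after the start.
Reg1: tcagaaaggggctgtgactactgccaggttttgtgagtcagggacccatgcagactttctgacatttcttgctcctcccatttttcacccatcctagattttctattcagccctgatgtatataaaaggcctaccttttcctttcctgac
Reg3a: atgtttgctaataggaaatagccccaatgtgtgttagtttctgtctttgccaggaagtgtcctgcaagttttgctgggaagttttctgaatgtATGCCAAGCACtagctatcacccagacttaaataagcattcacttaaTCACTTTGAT
Reg3b: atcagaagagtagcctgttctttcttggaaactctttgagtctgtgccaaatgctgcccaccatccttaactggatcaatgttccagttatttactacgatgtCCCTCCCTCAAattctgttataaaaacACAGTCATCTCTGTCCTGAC
Reg3g: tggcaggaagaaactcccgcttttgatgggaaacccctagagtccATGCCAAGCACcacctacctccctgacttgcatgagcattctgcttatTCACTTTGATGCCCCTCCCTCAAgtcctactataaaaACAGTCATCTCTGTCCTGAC
Reg4: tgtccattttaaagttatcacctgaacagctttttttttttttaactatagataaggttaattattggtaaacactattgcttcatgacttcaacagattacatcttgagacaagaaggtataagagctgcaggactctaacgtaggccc

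Reg3b and Reg3g shared a run of 29 bases that begins 20 bases before the start in both genes and was found in 0 other promoters of 32851. This run extends past the start, so its end is transcribed sequence. Reg3b and Reg3g also shared a run of 11 bases before the start. A run of 12 bases that they shared begins 19 bases after the start in Reg3b and 20 after it in Reg3g, and is transcribed too. Reg3a shared runs of 14 and 11 bases with Reg3g. No other pair of the 5 shared a run of this length. The letters TATAAA, the core of a TATA box, stood on the gene's strand 30 bases before the start in Reg1, 29 before it in Reg3b and 27 before it in Reg3g, and they stand on the gene's strand in 8.32% of all promoter windows. They were on neither strand in Reg3a and Reg4. The pattern TTCNNNGAA, which Stat factors are known to bind and which reads the same on both strands, was found in the Reg3b window alone among the 5 genes, against 8.3% of all windows. These matches describe letters and are not shown to be used sites.

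The coding sequences of Reg3a, Reg3b and Reg3g were 73.9% to 76.5% identical in pairs, and Reg1 was 63.8% to 66.8% identical to these 3. Exact windows of 31 bases were shared between the transcripts of Reg3b and Reg3g only, 5 windows in all, or 0.595% of the windows of Reg3b and 0.675% of those of Reg3g. Reads from the 2 genes could thus be mixed up over a small part of their length. How the submitters' counting split such reads is not given in the sources used here.

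Of the 677 cells, 49.5% were WT and 50.5% KO, and each run of each animal gave 80 to 87 cells. The values are TPM, the share of a cell's transcripts scaled to a fixed total and corrected for transcript length, which keeps no sequencing depth, so the number of genes above 0 per cell stands in for it: the median was 6042 in WT and 6170 in KO, and 5850.5 in Enterocyte and 5816.5 in Goblet cells. It was lower in run 2, at 5460.5 to 5878 over the animals, than in run 1, at 6247 to 6615. Atg16l2, the targeted gene, was above 0 in 38 WT cells (11.3%, exact 95% interval 8.15% to 15.2%) and in 0 KO cells, where the limit taken for a count of 0, 3 cells of the total, is a share of up to 0.877% and the exact upper bound is 1.07%. Each marker list of a named type had its highest summed level in the cells of that name. The run 1 profile of KO M2 lay at 21.3 on the first principal component, away from the other 3 profiles of that run at -23.1 to -17.0, and the fitted values without those cells are given beside the results. The intervals given for shares of cells reflect counting error and nothing else.

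Reg3g was the most widespread of the 5 genes. It was above 0 in 48.96% of Stem cells, in 62.3% of transit amplifying (TA) cells, in 84.5% of early and 94.7% of late enterocyte progenitors (Enterocyte.prog.early and Enterocyte.prog.late), and in 57 of 58 Enterocytes. It was also above 0 in 22 of 22 Paneth cells, the antimicrobial cells of the crypt base, with a median of 328.9 TPM, and in 45 of 70 Goblet cells. Its mean level over the 4 animals was 8145 ± 3564 TPM in Enterocytes (SD, n = 4), 6872 ± 1451 TPM in late and 3278 ± 1999 TPM in early progenitors, and 1578 ± 1192 TPM in Goblet cells. TA, Paneth, Stem, Tuft and Enteroendocrine cells followed at 663, 584, 192.6, 56.2 and 28.1 TPM. The animals of each type overlapped those of the next type down throughout, so no neighbouring step of this order exceeded the spread between animals. Both KO animals had more Reg3g in late progenitors (5645 and 6931 TPM) than in Enterocytes (4502 and 5847 TPM). The WT animals had the reverse, with 8891 and 6019 TPM in late progenitors and 10138 and 12093 TPM in Enterocytes. No test was made between types, because the names may have been given with the help of these genes.

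Reg3b followed the same order in the absorptive lineage. Its mean level was 10369 ± 4857 TPM in Enterocytes, 5867 ± 2800 TPM in late progenitors, 2631 ± 1884 TPM in early progenitors and 1151 ± 936 TPM in Goblet cells (SD, n = 4 animals). The animals of all neighbouring types overlapped here as well. It was detected less widely, in 37.5% of Stem, 29.7% of TA, 50.7% of early progenitor, 57 of 75 late progenitor and 94.8% of Enterocyte cells. Both antibacterial genes differed between runs in TA cells: Reg3b averaged 25.4 TPM in run 1 and 675 TPM in run 2, and Reg3g averaged 251.2 and 1109 TPM. The run 2 means rested on a few cells, the highest with 18732 TPM of Reg3b, while the median TA cell was at 0 TPM of Reg3b. The median number of genes above 0 in TA cells was 6524 to 7000.5 over the animals in run 1. In run 2 it was 5863.5 to 6182, and its part in these values was not tested.

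Reg3a was the one Reg3 gene whose Enterocyte animals did not overlap the next type down. Its mean was 599.7 ± 131.6 TPM in Enterocytes and 107.4 ± 15.4 TPM in late progenitors (SD, n = 4 animals). Paneth cells and early progenitors came next at 38.7 and 33.9 TPM, and the other types were at 13.2 TPM or below. The share of cells above 0 went from 3.12% in Stem through 7.43%, 34.5% and 74.7% to 94.8% in Enterocytes, while only 4 of 70 Goblet cells had any.

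Reg1 was ordered along the absorptive lineage in every animal. It averaged 2817 ± 2474 TPM in Enterocytes, 327.1 ± 101.3 TPM in late and 93.6 ± 66.3 TPM in early progenitors (SD, n = 4 animals), and 13.2 TPM in TA cells. The animals did not overlap at any of the 3 steps from Enterocytes down to TA cells, while TA and Goblet cells overlapped, and all remaining types were at 13.1 TPM or below. Even in Enterocytes Reg1 was above 0 in only 38 of 58 cells (65.5%, exact 95% interval 51.9% to 77.5%), against 55 of 58 for Reg3a and Reg3b.

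Reg4 was a gene of the secretory types. It averaged 8185 ± 6734 TPM in Enteroendocrine, 596 ± 423 TPM in Paneth and 474 ± 372.6 TPM in Goblet cells (SD, n = 4 animals), and 6.29 TPM or less in the other 6 types. The Goblet animals did not overlap those of TA cells, while the 3 secretory types overlapped each other. It was above 0 in 22 of 22 Paneth cells, from 20.8 to 2607 TPM with a median of 390.3 TPM, in 31 of 70 Goblet cells and in 6 of 32 Enteroendocrine cells, but in only 2 of 58 Enterocytes.

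**Figure D1:**
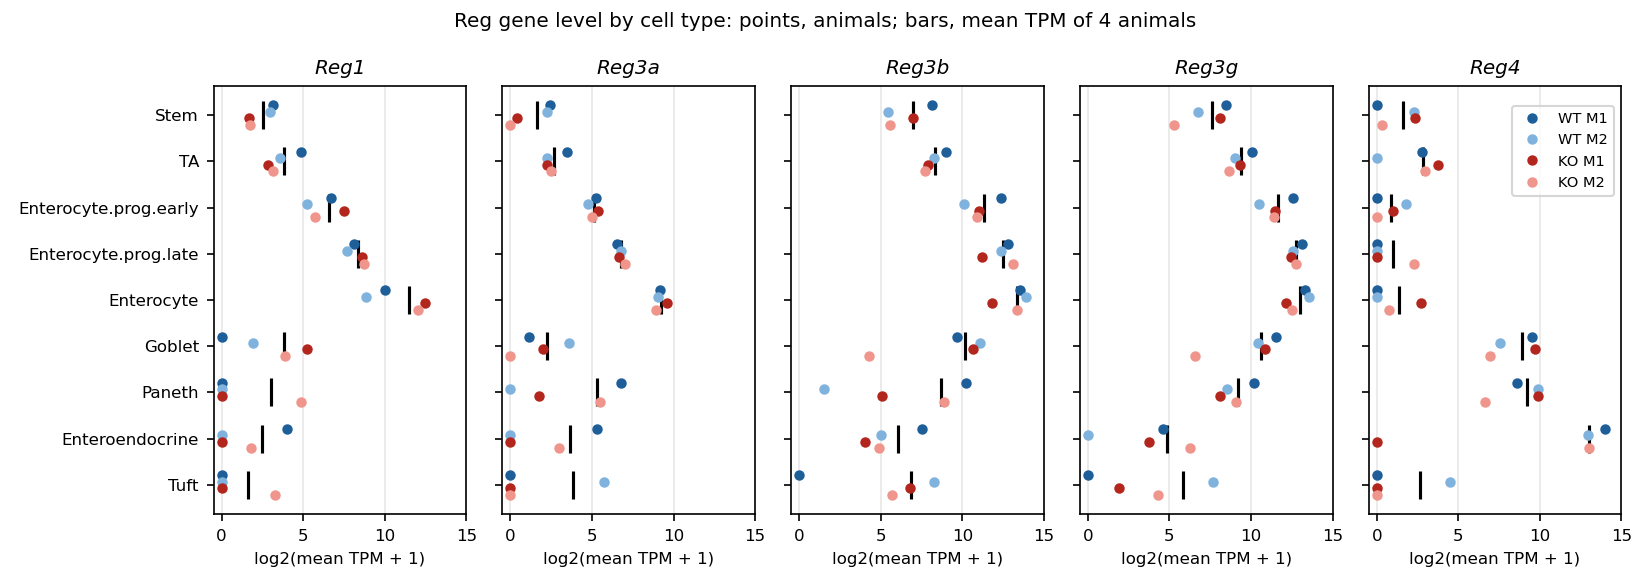
Level of each Reg gene in the 9 cell types on a log2(mean TPM + 1) axis, where points are the 4 animals and the bar is the mean TPM over them on the same scale. By the mean over animals, Reg1 and the Reg3 genes are highest in Enterocytes, though both KO animals have more Reg3g in late progenitors. Reg4 is highest in Enteroendocrine, Paneth and Goblet cells, with 1 KO animal at 0 in Enteroendocrine cells.

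A few cells held most of several of these transcripts. Among the 58 Enterocytes, 3 cells held 50% of all Reg1 TPM and the single highest cell, from KO M1, held 27.1%. For Reg3b, Reg3a and Reg3g the corresponding numbers were 6, 8 and 8 cells. In the 70 Goblet cells, 3 cells held 50% of Reg3b, 4 held 50% of Reg3g and 2 held 50% of Reg4. Together the 5 genes took a median of 1.08% of an Enterocyte's TPM, with a highest value of 11.8%.

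Between genotypes, Reg1 was higher and Reg3g lower in KO Enterocytes, and only the Reg1 difference passed the test. Enterocytes numbered 18 and 11 in WT M1 and M2 and 12 and 17 in KO M1 and M2. Reg1 averaged 1018 and 465.8 TPM in the WT animals and 5596 and 4189 TPM in the KO animals, so both KO animals lay above both WT animals. The KO mean was 6.59 times the WT mean (4892 ± 995 against 742 ± 390 TPM, SD, n = 2 each). On the log2(mean TPM + 1) scale the difference was 2.81 (SE 0.31, adjusted p = 0.0214, limma with Benjamini-Hochberg adjustment over 5854 genes). Of the 4 Reg genes kept in this fit, 1 was called, against 0.0342% of all genes tested, which is 2 genes, Reg1 and 2210407C18Rik, with 482 at an unadjusted p under 0.05. Since there are 2 animals per genotype, all such p-values rest on the spread between these few animals. They also draw on variance shared across genes by limma's eBayes step, and the Reg1 call was lost without its trend.

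The Reg1 difference had the same sign within each run. In run 1 the WT animals averaged 627.4 and 263.03 TPM and the KO animals 3264 and 6658 TPM. In run 2 they averaged 1267 and 709.2 TPM against 6762 and 3159 TPM. Such separation of the animals was seen for 31.8% of the genes tested in Enterocytes of run 1 and for 36.6% in run 2. The fitted differences were 3.52 and 2.28 on the log2 scale, without an adjusted call in either run alone (limma adjusted p = 0.295 and 0.746). Cell by cell, 14 of 29 KO and 6 of 29 WT Enterocytes reached 1000 TPM of Reg1, with medians of 809.8 and 43.1 TPM. By animal, these cells numbered 5 and 1 in WT and 6 and 8 in KO. The call was lost in 7 of 20 alternative settings, such as leaving out the highest cell of each animal (2.54, limma adjusted p = 0.154). It was kept without the run 1 cells of KO M2 (2.61, limma adjusted p = 0.0204). Fits that leave out 1 animal set a single animal against 2, with 1 residual degree of freedom, so the lone animal is assumed to vary like the pair and the p-values below from such fits are no evidence of stability.

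The genotypes were not ordered the same way along the lineage for Reg1. In Stem cells the WT animals averaged 7.78 and 6.90 TPM and the KO animals 2.23 and 2.27 TPM. In TA cells they averaged 28.1 and 10.8 TPM against 6.18 and 7.80 TPM, where KO was the lower pair. The animals separated by genotype for 40% of the genes tested in TA cells. This share was not computed for Stem cells, so their order is given as values only. The Stem values rested on 3 WT and 4 KO cells above 0, so that the share of Stem cells with Reg1 was 6.12% in WT and 8.51% in KO. Late progenitors had the order of Enterocytes, with 281.9 and 207.4 TPM in WT, and KO at 390 and 429 TPM, beside 34.2% of the genes tested there that also separated, and in early progenitors the animals overlapped. No fit was made within these types, where the levels rest on 7 to 51 cells above 0.

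Reg3g went the other way in Enterocytes. WT animals averaged 10138 and 12093 TPM and KO animals 4502 and 5847 TPM, so both KO animals were below both WT animals. The fitted difference was -1.11 (SE 0.17), which did not pass the threshold (limma adjusted p = 0.0736). In fits with a lone animal it was past the threshold without KO M2 (-1.30, limma adjusted p = 0.00131) and without WT M1 (-1.24, limma adjusted p = 0.0487). Without the run 1 cells of KO M2 it was -0.95 (limma adjusted p = 0.129). The animals overlapped in run 1, at 7019 and 15345 TPM in WT against 10016 and 2284 TPM in KO, but not in run 2, at 12123 and 8190 TPM against 1745 and 7332 TPM. The median Enterocyte held 7202 TPM in WT and 1084 TPM in KO, while all 29 KO cells were above 0, the lowest at 108.2 TPM, as were 28 of 29 WT cells.

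Reg3b had averages of 11809 and 15277 TPM in WT mice, against 3698 and 10691 TPM in KO Enterocytes, a fitted difference of -1.09 (SE 0.39, limma adjusted p = 0.478). Run 1 gave a difference of 0.30 and run 2 one of -2.03, so the sign was not shared between runs. Without KO M2, with KO M1 as the lone KO animal and the spread taken from the WT pair, the difference was -1.86 (limma adjusted p = 0.00021), and without KO M1 it was -0.33. Without the run 1 cells of KO M2 it was -1.03 (limma adjusted p = 0.430). The Reg3b value therefore rested on which KO animal was included.

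Reg3a did not separate the genotypes in Enterocytes. WT animals averaged 580.2 and 538.2 TPM and KO animals 789.3 and 491.0 TPM (0.16, SE 0.24, limma adjusted p = 0.912), and the difference was 0.16 without the run 1 cells of KO M2 as well. Of the 4 kept genes, Reg1, Reg3b and Reg3g had both KO animals on one side of both WT animals, which was so for 37.9% of all genes tested in Enterocytes.

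**Figure D2:**
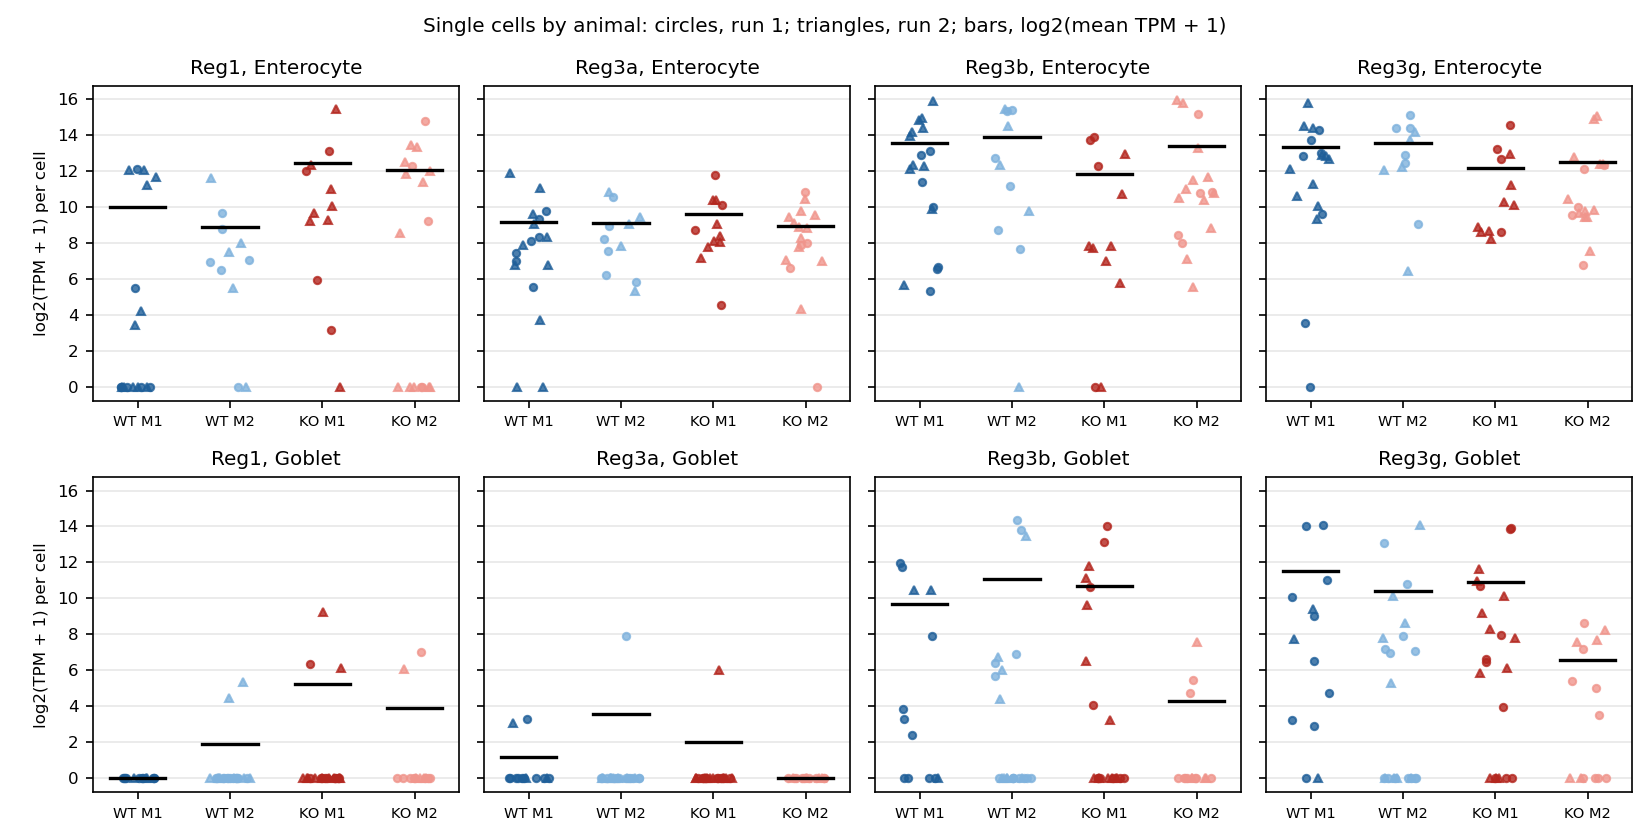
Single Enterocyte (top) and Goblet (bottom) cells by animal for Reg1, Reg3a, Reg3b and Reg3g, as log2(TPM + 1) per cell, with circles for run 1, triangles for run 2 and bars at log2(mean TPM + 1). In Enterocytes the Reg1 bars of both KO animals are above those of both WT animals, and the Reg3g bars are below; most Goblet cells are at 0 for Reg1 and Reg3a.

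Markers of other cell types also differed between these Enterocyte groups. The 9 Paneth markers summed to 154.8 and 100.1 TPM in WT M1 and M2 and to 4013 and 552 TPM in KO M1 and M2, with none of the 9 at 0 in every cell. The 10 goblet markers summed to 62.2 and 75.8 TPM in the WT animals and to 102.8 and 2354 TPM in the KO animals. The 10 enterocyte markers summed to 25851 and 36030 TPM against 25716 and 24893 TPM. With the cell carrying over 3% of its TPM in Paneth markers left out, the Reg1 difference was 2.87 (limma adjusted p = 0.0106) and the Reg3g difference was -1.46 (limma adjusted p = 0.144).

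The position of a cell along the gut was looked at through 2 lists chosen after the data had been seen. Genes of the proximal small intestine had sums of 4024 and 3404 TPM in WT mice, against 4704 and 6383 TPM in KO Enterocytes. Genes of the distal small intestine had sums of 3593 and 3254 TPM in WT mice, against 2050 and 2658 TPM in KO. Of the 10 proximal genes kept in the fit, 5 were higher and 5 lower in KO, with 0 called and a median of 0.02. Of the 9 distal genes kept, 8 were lower and 1 higher in KO, with 0 called and a median of -0.79. The median difference over all genes tested was -0.04. Over the 58 single Enterocytes, Reg1 correlated at r = 0.33 with the proximal and at -0.32 with the distal score, while Reg3b and Reg3g correlated at 0.35 and 0.31 with the distal score. Reg1 with the proximal score gave -0.04 in run 1 and 0.50 in run 2. With the distal score, Reg3b gave 0.18 in run 1 and 0.50 in run 2, Reg3g 0.16 and 0.52, and Reg1 -0.34 and -0.29. Within KO cells Reg3b and Reg3g gave 0.18 and 0.21 with the distal score, and within WT cells 0.47 and 0.34. The part of gut position in the Reg1 and Reg3g differences was not tested.

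In Goblet cells no Reg gene was called, against 0.0161% of the genes tested, which is 1 gene, Olfm4. Reg1 averaged 0 and 2.73 TPM in WT mice, against 36.1 and 13.7 TPM in KO animals (3.60, SE 1.07, limma adjusted p = 0.579), and only 2 of 35 WT and 5 of 35 KO cells were above 0. Reg3b averaged 809 and 2151 TPM in WT mice, against 1626 and 18.2 TPM in KO (-2.90, limma adjusted p = 0.798). Reg3g averaged 2961 and 1366 TPM in WT mice, against 1892 and 93.8 TPM in KO (-2.25, limma adjusted p = 0.715). For both antibacterial genes KO M2 was the low animal and KO M1 lay within the WT range. Without KO M1, which leaves that low animal alone against the WT pair, their differences were -6.10 and -4.41 (limma adjusted p = 1.37e-09 and 3.23e-08), and without KO M2 the Reg3b difference was 0.30. Without the run 1 cells of KO M2 the differences were -2.40 and -1.97, neither past the threshold (both limma adjusted p = 0.907), and Reg1 did not pass the filter. Of the 4 kept genes 1, Reg1, had animals that did not overlap by genotype, as had 35.8% of the genes tested in Goblet cells. Reg1 met the filter only through its KO cells, with means of 1.37 TPM in WT and 24.9 TPM in KO. A single KO cell held 60.4% of its Goblet total, so its separation is no support for a difference.

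The difference between the Enterocyte and the Goblet effect was itself fitted over 5004 genes. It was -0.78 for Reg1, 1.80 for Reg3b and 1.14 for Reg3g, and none passed (limma adjusted p = 0.954, 0.919 and 0.918). The Reg1 value draws on the Goblet fit, which Reg1 entered only through its KO cells, so nothing is read from it. Among all genes 0 were called, with 5.10% at an unadjusted p under 0.05.

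Averaged over the 6 types that had 10 or more cells from each animal (Stem, TA, both progenitor stages, Enterocyte and Goblet), 0% of 6714 genes were called by limma, with 510 at an unadjusted p under 0.05. The log2 differences were 0.87 for Reg1 (SE 0.22, limma adjusted p = 0.499), -1.01 for Reg3b (SE 0.29, 0.513), -0.86 for Reg3g (SE 0.42, 0.684) and -0.57 for Reg3a (SE 0.21, 0.596). Reg1, Reg3a and Reg3b had animals that did not overlap by genotype on this scale, as had 39.1% of all genes tested. Without the run 1 cells of KO M2 these differences were 0.82, -0.71, -0.79 and -0.81. Reg3a shows how the scale matters: its mean TPM was 118.1 in WT and 132.7 in KO, while the average of its log2 values was lower in KO.

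Cells high in Reg3b tended to be high in Reg3g. Over the 58 Enterocytes their log2(TPM + 1) values correlated at Pearson r = 0.48 and Spearman rho = 0.59. Both genes reached 1000 TPM in 28 cells, Reg3b alone in 9, Reg3g alone in 11 and neither in 10. The r was 0.52 in WT and 0.41 in KO cells, 0.38 in run 1 and 0.61 in run 2, and between 0.32 and 0.79 within the 4 animals. In the 70 Goblet cells r was 0.61 (rho 0.52), and 0.56 without the 6 cells rich in Paneth markers. It was 0.59 in late and 0.56 in early progenitors. The 2 genes of a cell are read from the same library and share its depth and preparation. The 2 transcripts also share the few windows given above, so these correlations are a description.

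Reg1 ran against Reg3b in the same Enterocytes. Their r was -0.33 (rho -0.36), with -0.12 in WT, -0.43 in KO, -0.22 in run 1 and -0.39 in run 2. Both genes reached 1000 TPM in 9 cells, Reg1 alone in 11, Reg3b alone in 28 and neither in 10. In the 20 cells with at least 1000 TPM of Reg1, the median was 655.9 TPM for Reg3b and 1081 TPM for Reg3g. In the 20 cells with Reg1 at 0, these medians were 4723 and 6687 TPM, and the median number of genes above 0 was similar, at 5799 and 5770.5. Of the 20 cells with at least 1000 TPM of Reg1, 14 were KO. Within WT the medians were 2889 TPM of Reg3b in 6 such cells and 4723 TPM in the 12 cells with Reg1 at 0, and within KO they were 397.7 TPM in 14 cells and 6555 TPM in 8. For Reg3g the same medians were 3390 and 7216 TPM within WT, and 950.1 and 3033 TPM within KO. Yet Reg3g reached 1000 TPM in 12 of the 20 cells with at least 1000 TPM of Reg1 and in 13 of the 20 with Reg1 at 0, while for Reg3b these numbers were 9 and 15. The 18 cells in between had medians of 3502 TPM of Reg3b and 5161 TPM of Reg3g. Within WT the 11 such cells had 6672 TPM of Reg3b, more than the cells with Reg1 at 0. The weak relation between Reg1 and Reg3g (r = -0.12) had opposite signs in run 1 and run 2 (0.19 and -0.42). The inverse order of Reg1 and Reg3b was not seen at earlier stages, where r was -0.03 in late and 0.19 in early progenitors. Reg3a correlated with the other 3 genes at -0.01 to 0.12 in Enterocytes.

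**Figure D3:**
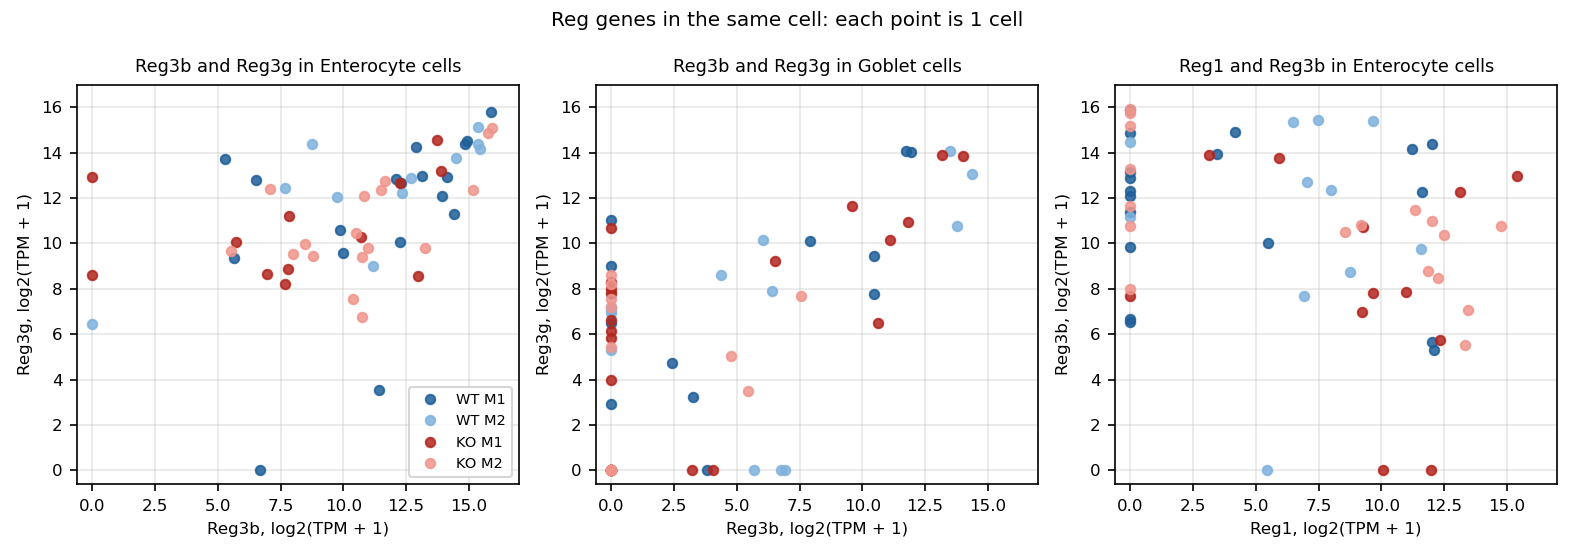
Pairs of Reg genes in single cells as log2(TPM + 1), coloured by animal: Reg3b and Reg3g in Enterocytes (left, r = 0.48) and in Goblet cells (middle, r = 0.61), and Reg1 and Reg3b in Enterocytes (right, r = -0.33). Each point is 1 cell, and cells at 0 for a gene line the axes.

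The Reg4 of Enteroendocrine cells came from 5 of 32 cells. They held 144633 and 3799 TPM in WT M1, 24028 TPM in WT M2, and 108143 and 15408 TPM in KO M2, so Reg4 alone took 14.5% and 10.8% of the TPM of the highest cells. All 5 carried Chga, a secretory granule protein, at 41373 to 78069 TPM, Tph1, the enzyme that commits enterochromaffin cells to serotonin, at 505 to 5055 TPM, and Tac1, the precursor of substance P, at 1726 to 12072 TPM. The sixth Reg4-positive cell had 17.9 TPM of Reg4 with Tph1 and Tac1 at 0. Among the 26 Enteroendocrine cells without Reg4, Tph1 was above 0 in 6 and Tac1 in 9. Gip and Gcg, hormone genes of other enteroendocrine cells, were above 0 in 0 of the 6 Reg4-positive cells and in 6 and 4 of the 26 others. Sct, the secretin gene, was above 0 in all 6 Reg4-positive cells and in 17 of the 26 others, and Cck was above 0 in 2 of the 6 and in 13 of the 26. The level per animal (16492 and 8009 TPM in WT, 0 and 8238 TPM in KO) thus rested, of those 5 cells, on 2 from WT M1 (9 Enteroendocrine cells), 1 from WT M2 (3 cells), 0 from KO M1 (5 cells) and 2 from KO M2 (15 cells), and no genotype test was made.

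In Goblet cells Reg4 averaged 736.6 and 186.6 TPM in the WT and 849.8 and 122.1 TPM in the KO animals (-0.20, SE 0.72, limma adjusted p = 0.991), with overlapping genotypes. Much of it sat in cells that also carried Paneth transcripts. The 6 Goblet cells with over 3% of their TPM in Paneth markers, 5 from KO M1 and 1 from WT M1, were all Reg4-positive, at 317.9 to 13448 TPM, and held 74.1% of all Goblet Reg4. They held 31.5% of Goblet Reg3g and 26.4% of Goblet Reg3b. Without them the 4 animals averaged 88.1, 186.6, 109.4 and 122.1 TPM of Reg4, and 25 of 64 cells remained above 0. The Reg4-positive Goblet cells had a median of 0.695% of their TPM in Paneth markers, against 0.135% in the Reg4-negative ones. Whether such cells are 1 cell or 2 cells caught together was not tested.

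**Figure D4:**
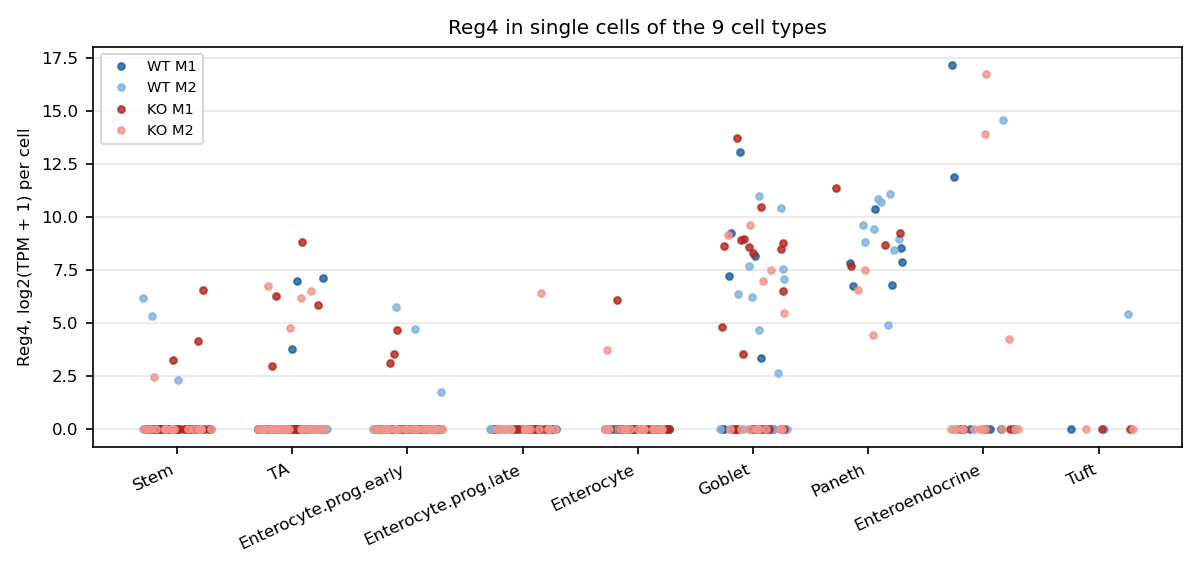
Reg4 in every single cell of the 9 types as log2(TPM + 1), coloured by animal. All Paneth cells are above 0, 5 Enteroendocrine cells lie at 3799 TPM or above while most are at 0, and Goblet cells split into 31 above 0 and 39 at 0.

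The genes most like each Reg gene were ranked over 32 profiles of animal by cell type. Nearest to Reg1 were Tmem139, Hkdc1, Fabp1, Ms4a18 and Mme (r = 0.90 to 0.92), and among the nearest to Reg3a were Ms4a18, Dpep1, Gpt and Cyp3a13 (0.91 to 0.92). Fabp1 encodes a fatty acid binding protein and Mme and Dpep1 encode peptidases of the enterocyte surface. Reg3b had Cox7a1, Lgals3, Bcl2l15, Cyp4f40 and Btnl6 (0.87 to 0.91), and Reg3g had Bcl2l15, Cyp4f40, Eepd1, Reg3b and Xdh (0.84 to 0.87). Reg3b and Reg3g thus shared Bcl2l15 and Cyp4f40 among their nearest genes. Reg4 had Hpd, Gcnt3, Selm, Hepacam2 and Sct, at lower values of 0.74 to 0.78.

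Over the 58 single Enterocytes the nearest genes differed between the Reg genes. Reg1 had Ces1f (0.62), Ces2g, Arg2, Agmat and Mme, the first 2 being carboxylesterases. Reg3g had Duox2 (0.54), which makes hydrogen peroxide at the epithelial surface, then Hdhd3, Reg3b, Erap1 and Atp6v1b2, and Reg3b had Tifa (0.50), Reg3g, Bcl2l15, Duox2 and Prep. Duox2 therefore stood near both antibacterial lectins. Reg3a had Tmem208, Ugt2a3, Hipk2, Fam188a and B4galt1 (0.49 to 0.54). Among 6416 genes ranked, Reg3g was second for Reg3b, while Reg3b came at rank 6382 for Reg1. These values share libraries and depth, and no genes are named for Reg4, whose ranking rests on 2 positive Enterocytes.

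The other genes of the pathway known to drive Reg3b and Reg3g were not called in any comparison. Of 7 genes for interleukin-22 and Stat3 signalling kept in Enterocytes, 6 were lower and 1 higher in KO, with 0 called and a median of -0.12, beside -0.04 over all genes tested. Of 4 genes for sensing microbes, 3 were lower and 1 higher, with 0 called and a median of -0.25, and the inflammasome sensor Nlrp6 had the smallest p (0.57, limma adjusted p = 0.478). Of 6 genes for epithelial defence 3 were higher and 3 lower, with 0 called and a median of 0.05, and S100g had the smallest p (1.79, limma adjusted p = 0.398). Saa1, Saa2, Saa3, Lcn2 and Retnlb, known to rise with bacterial contact, were at 0 in every Enterocyte of both genotypes. Of 8 other lectin genes 5 were lower and 3 higher, with 0 called and a median of -0.14, and the galectin gene Lgals3 had the smallest p (-1.09, limma adjusted p = 0.226).

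Villus position was described in the same way. Of 6 genes of the villus bottom 4 were higher and 2 lower in KO Enterocytes, with 0 called and a median of 0.43, and Aldh1a1 had the smallest p (0.84, limma adjusted p = 0.398). Aldh1a1 is also in the proximal list above, so the villus bottom and proximal lists overlap and are not separate readouts. Of 3 villus tip genes 1 was higher and 2 lower, with 0 called, and Apoa4 had the smallest p (-0.53, limma adjusted p = 0.485). Among single Enterocytes, the villus bottom score correlated with Reg3a at r = 0.49, but at 0.62 in WT and 0.22 in KO cells and at 0.13 in run 1 and 0.77 in run 2. It correlated with Reg1 at 0.35 (0.29 in run 1 and 0.39 in run 2), and with Reg3b and Reg3g at -0.07 and 0.00.

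In Goblet cells the same pathway lists also held 0 called genes. The medians were -0.15 for 6 interleukin-22 and Stat3 genes (5 lower, 1 higher), -0.22 for 5 microbial sensing genes (4 lower, 1 higher) and -0.12 for 5 defence genes (4 lower, 1 higher), beside -0.01 over all genes tested. The smallest p in these lists belonged to Stat3 (0.21, limma adjusted p = 0.975), Nfkbia (-1.83, 0.579) and Duoxa2 (-1.48, 0.816). Among 8 other lectin genes (6 lower, 2 higher, 0 called) it belonged to Itln1, an intelectin that is also a Paneth marker (1.24, limma adjusted p = 0.501). The Paneth markers in these Goblet cells had sums of 21578 and 4595 TPM in WT mice, against 89241 and 3813 TPM in KO animals. Their part in the Goblet values was not tested. In the average of 6 types these 4 lists held 0 called genes as well, and the genes of smallest p were Stat3 (-0.29, limma adjusted p = 0.736), Myd88 (-0.47, 0.637), Duox2 (-0.61, 0.684) and Itln1 (1.62, 0.295).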

How the data were processed

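Single intestinal epithelial cells of WT and Atg16l2 KO mice were measured by SMART-Seq2. The values are TPM per gene and cell as deposited by the authors; the submitters' processing notes name Bowtie, TopHat and RSEM, and the genome build is not given in the sources used here. Column names gave genotype, animal code, run and cell type for all 677 cells, and 0 columns were unmatched. No cell had the same values as another, and no doublet caller was run.

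Because TPM is not a count, cells were averaged per animal and type, and log2(mean TPM + 1) was fitted with limma 3.58.1 (eBayes with trend, R 4.3.3, two-sided, Benjamini-Hochberg over all kept genes, threshold 0.05), after a filter of a mean of at least 10 TPM and a value above 0 in at least 10% of cells. Scores and summaries used pandas 2.3.3, and exact intervals scipy 1.17.1. The fit was run on simulated data with 200 changed genes, made by drawing WT cells at random into all animals. That simulation holds no variation between animals beyond the draw of cells, so it does not test the fit against such variation. The named genes are the 5 Reg genes, the 5 most correlated with each (predicted gene symbols skipped), and from each list the called genes or the 1 with the smallest p; 2 of these are not reported here. The members and lists were chosen with earlier results of these data known; the proximal and distal lists, the fits without run 1 of KO M2 and the crossed pairing were added after seeing the data. Promoters are RefSeq windows of GRCm38.p6.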

Additional observations from a re-analysis of the deposited data

Results flagged for a closer look

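Reg3a in Enterocytes moved in opposite directions in the 2 runs: both KO animals were above both WT animals in run 1 (1263 and 477.2 against 348.8 and 437.8 TPM, a log2 difference of 0.99), and both were below them in run 2 (552.4 and 496.8 against 727.5 and 658.7 TPM, -0.40). Animals separated by genotype in this way for 31.8% of the genes tested in Enterocytes of run 1 and for 36.6% in run 2. The difference between the runs was not tested.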

How the results depend on the processing

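With 2 animals per genotype and TPM without depth, counts of called genes depended on the processing. In Enterocytes (2 called) the count was 5 with a pseudocount of 10, 0 without the filter on low values, 8 with a filter of 50 TPM, 0 with log values averaged over cells, 11 after quantile normalization, 1 in run 1 alone, 0 in run 2 alone, 0 with 8 units of run and animal, 5 with cells of at least 5000 genes, 0 without the trend, 0 without the highest cell, 6 without cells rich in Paneth markers, 27 without run 1 of KO M2 and 5 to 55 leaving out each animal in turn. In Goblet cells (1 called) it was 0 without the filter, with quantile normalization, in run 1, with 8 units, with 5000 genes, without the trend, without the highest cell and without run 1 of KO M2. It was 2 at 50 TPM, 9 with averaged log values, 5 in run 2 and 0 to 25 leaving out each animal. For the average of 6 types (0 called) it was 5 in run 2, 1 with 8 units, 4 with 5000 genes and 0 to 19 leaving out each animal. Each fit without 1 animal has a lone animal in 1 arm, assumed to vary like the other animals. The cause was not tested.

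The Reg1 difference in Enterocytes kept its sign in all 20 alternatives (2.25 to 3.52) and its call in 13. Those 13 include the fits without 1 animal and the replicate block, which have 1 residual degree of freedom and are no evidence of stability. Reg1 lost the call without the filter (limma adjusted p = 1), with averaged log values (0.396), in run 1 (0.295), in run 2 (0.746), with 8 units (0.194), without the trend (0.606) and without the highest cell (0.154). Reg3g in Enterocytes kept its sign in all 20 (-1.48 to -0.82) and passed in 6, fits without 1 animal and the replicate block among them. Signs turned for Reg3b in Enterocytes in run 1 (0.30) and in Goblet cells without KO M2 (0.30), and for Reg3a in Enterocytes in run 2 (-0.40) and without KO M1 (-0.19). They turned for Reg3a in the average with averaged log values (0.10). Reg4 in Goblet cells turned with averaged log values (0.73), in run 2 (5.11), with 8 units (1.82), without the highest cell (0.42), without WT M1 (0.79) and without KO M2 (1.19). Leaving out each animal in turn, Reg3a in Enterocytes ran from -0.19 to 0.50, Reg3b in Goblet cells from -6.10 to 0.30 and Reg4 in Goblet cells from -1.60 to 1.19. Reg1 in Goblet cells had a value in 15 alternatives only, since it fell below the filter in the other 5.

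Animal codes are shared between genotypes, but same-numbered animals did not deviate together (r = -0.13, -0.06 and 0.07 for the average, Enterocytes and Goblet cells), so the codes are not taken as pairs. With the replicate block the counts were 2, 26 and 48, and Reg3g in Enterocytes (limma adjusted p = 0.00918) and Reg3b and Reg3g in Goblet cells (7.33e-21 and 1.24e-14) passed. The crossed replicate block, an arbitrary pairing, gave 44, 17 and 49 called genes. Both block fits have 1 residual degree of freedom, so these passes are no evidence of a difference between genotypes.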
